A study of Homo sapiens with 6 samples.

Results

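The 8 genes described here are SMAD4 with its neighbours ELAC1, ME2 and MEX3C in band 18q21 of chromosome 18, and RB1 with its neighbours LPAR6, RCBTB2 and ITM2B in band 13q14 of chromosome 13. They are 8 of the 18795 genes measured, and all 8 passed the filter on low values that left 12454 genes for testing. They were chosen by Entrez Gene ID, with values of these libraries in view: SMAD4 and RB1, both deleted in the line MDA-MB-468, were near the lowest listed value in 2 of its 3 libraries and not in the third. The difference between the lines and that between the MDA-MB-468 libraries therefore chose the genes, and for these genes both are given as a description with no test. The neighbours were taken for their position beside SMAD4 and RB1.

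SMAD4 is the shared partner of the receptor-activated SMAD proteins, which carry TGF-beta and BMP signals from the cell membrane to target genes in the nucleus. RB1 encodes the retinoblastoma protein, which binds E2F transcription factors and holds back genes of DNA synthesis until cyclin-dependent kinases phosphorylate it. Both are tumour suppressors lost in a part of basal-like breast cancers, and a deletion that removes one of them can take adjacent genes with it.

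Messenger RNA was sequenced from sorted cells of MDA-MB-468 and HCC70, both established human lines of breast cancer. The sorted populations were K18+Vim+ (keratin 18 with vimentin), K18+K14+ (keratin 18 with keratin 14) and K18+ (keratin 18), with 1 library per population and line, which gives n = 2 for each population, with the lines as replicates. MDA-MB-468 was grown in Leibovitz L15 medium and HCC70 in RPMI medium, so the line and its medium cannot be told apart. All cells of both lines were fixed in methanol before staining and sorting, and the labels name no drug or genetic change. P-values therefore rest on the disagreement of the lines over the population differences, and no spread between cultures of a line was measured. Values are FPKM, fragment counts scaled to transcript length and library size, with a lowest listed value of 0.1 FPKM. Read numbers are unknown, so no counting interval is given.

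The K18+Vim+ library labelled MDA-MB-468 held far less than the other MDA-MB-468 libraries of EGFR, which is known to be amplified in this line, and of 3 genes near it. EGFR was at 10.4 FPKM in it, at 70.7 FPKM in MDA-MB-468 K18+K14+ and at 153 FPKM in MDA-MB-468 K18+, against 11.2 to 23.3 FPKM in HCC70. VOPP1 was at 24.1, 344 and 251 FPKM in the same MDA-MB-468 libraries, against 53.1 to 67.4 FPKM in HCC70. SEC61G was at 720, 10000 and 4875 FPKM in them, against 218 to 251 FPKM in HCC70, where 10000 FPKM is the highest value the table lists. LANCL2 was at 26.3, 179 and 291 FPKM in them, against 5.61 to 10.1 FPKM in HCC70. EGFR and VOPP1 thus lay below every HCC70 library in the K18+Vim+ library labelled MDA-MB-468, while SEC61G and LANCL2 lay above every one. The summed level of 10 epithelial markers was 241.5 FPKM in it, 3471 FPKM in MDA-MB-468 K18+K14+ and 2781 FPKM in K18+, against 2504 to 2694 FPKM in HCC70, with none at the lowest listed value in any library. VIM, the gene of vimentin, was at 259 FPKM in it and at 13.3 and 12.2 FPKM in the other MDA-MB-468 libraries. KRT18, the gene of keratin 18, was at 67.7 FPKM in it and at 569 and 464 FPKM in the others, against 158 to 216 FPKM in HCC70. Summed levels in this library were 4.89 FPKM for 10 fibroblast markers, 2.32 FPKM for 8 endothelial markers, 5.63 FPKM for 10 immune cell markers and 1.22 FPKM for 6 erythroid markers, with 5, 6, 3 and 5 of them at the lowest listed value. Over the other 5 libraries the fibroblast sum ranged from 8.24 to 12.3 FPKM, the endothelial sum from 0.8 to 3.58 FPKM, the erythroid sum from 0.6 to 1.45 FPKM, and the immune sum from 33.8 to 145 FPKM, the last mostly CD14. The column header of the K18+Vim+ library labelled MDA-MB-468 is spelled unlike those of the other MDA-MB-468 libraries. The label of this library is kept throughout, and its source was not tested. Counts of tests are given with and without it, as are some single differences or tests of the lines. The median over the tested genes lay between 8.12 FPKM in MDA-MB-468 K18+K14+ and 11.8 FPKM in HCC70 K18+.

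Promoter windows of 3 of the genes are printed here, picked from the 8 listed windows of 7 genes. SMAD4 and RCBTB2 were read in the K18+Vim+ library labelled MDA-MB-468, and LPAR6 was listed at 0.1 FPKM there. RB1, with 0 CG in its listed window, was read there too. Whether CG content goes with these levels was not tested. Each window runs from 250 bases before to 50 bases after a start site of the RefSeq table (GRCh38.p14), and capitals mark the dinucleotide CG. The windows are chr18:51029963-51030262 on the plus strand for SMAD4, chr13:48533031-48533330 on the minus strand for RCBTB2 and chr13:48413064-48413363 on the minus strand for LPAR6.
SMAD4: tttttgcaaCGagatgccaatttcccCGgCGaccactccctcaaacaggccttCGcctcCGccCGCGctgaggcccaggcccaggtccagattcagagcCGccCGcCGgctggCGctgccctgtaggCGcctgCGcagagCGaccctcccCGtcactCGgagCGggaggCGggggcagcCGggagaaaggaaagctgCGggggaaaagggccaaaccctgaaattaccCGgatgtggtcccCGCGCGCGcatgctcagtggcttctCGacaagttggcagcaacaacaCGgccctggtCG
RCBTB2: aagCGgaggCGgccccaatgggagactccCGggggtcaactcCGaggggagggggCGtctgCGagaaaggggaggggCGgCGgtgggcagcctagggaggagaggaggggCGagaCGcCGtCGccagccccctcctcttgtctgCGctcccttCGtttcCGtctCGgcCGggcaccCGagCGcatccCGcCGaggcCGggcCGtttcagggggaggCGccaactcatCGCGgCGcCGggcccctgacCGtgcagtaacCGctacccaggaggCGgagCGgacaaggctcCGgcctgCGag
LPAR6: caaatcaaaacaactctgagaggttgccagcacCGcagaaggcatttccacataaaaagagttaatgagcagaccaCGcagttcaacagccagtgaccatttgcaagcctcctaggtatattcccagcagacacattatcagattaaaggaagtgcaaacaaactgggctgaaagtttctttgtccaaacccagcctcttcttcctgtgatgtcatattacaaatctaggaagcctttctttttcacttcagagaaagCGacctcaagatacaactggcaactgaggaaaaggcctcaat
The SMAD4 window held 28 CG dinucleotides, more than 73.8% of the 35116 windows in the table, whose median was 14. The RCBTB2 window held 34 CG, more than 84.4% of windows, and its start lies 2815 bases inside the gene's outer 5′ end, where a second listed window held 1 CG. The LPAR6 window was poor in CG, with 3, more than 18.2% of windows, and has its start 31556 bases inside the gene's outer 5′ end. ME2, ELAC1 and MEX3C had windows with 35, 33 and 27 CG. The listed RB1 window held 0 CG and is not shown, since it starts 172699 bases inside the gene. Over the 8 windows of 7 of these genes, searched on both strands, the GC box GGGCGG was found in 5 (45% of all windows) and CCAAT in 4 (34.6% of all windows). TATAAA, the E2F motifs TTTGGCGC and TTTCGCGC and the SMAD motif GTCTAGAC were found in 0 of the 8, against 11.5%, 0.652%, 0.515% and 0.202% of all windows.

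In band 18q21, SMAD4 (Entrez Gene 4089) differed most between the libraries. It was at 5.19 FPKM in the K18+Vim+ library labelled MDA-MB-468, 0.31 FPKM in MDA-MB-468 K18+K14+ and 0.566 FPKM in MDA-MB-468 K18+, against 7.01 FPKM in HCC70 K18+Vim+, 7.895 FPKM in HCC70 K18+K14+ and 13.748 FPKM in HCC70 K18+. The MDA-MB-468 K18+K14+ and K18+ libraries, called keratin-sorted below as their labels name keratins only, were thus at 3.25% and 5.93% of the HCC70 mean of 9.55 ± 3.66 FPKM (SD over the 3 HCC70 populations), and the library labelled K18+Vim+ at 54.3% of it. All 3 MDA-MB-468 libraries lay below all 3 HCC70 libraries. In the K18+Vim+ library labelled MDA-MB-468, SMAD4 was 9.17-fold its level in MDA-MB-468 K18+ and 16.7-fold that in K18+K14+. Without that library, MDA-MB-468 held no SMAD4 value above 0.566 FPKM.

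ELAC1 (55520), an endonuclease that acts on transfer RNA, had the same shape over the MDA-MB-468 libraries with a smaller range. It was at 3.805 FPKM in the K18+Vim+ library labelled MDA-MB-468, 1.222 FPKM in K18+K14+ and 1.333 FPKM in K18+, against 2.727, 2.519 and 4.471 FPKM in the HCC70 K18+Vim+, K18+K14+ and K18+ libraries. The keratin-sorted MDA-MB-468 libraries were at 37.7% and 41.2% of the HCC70 mean of 3.24 ± 1.07 FPKM, and the library labelled K18+Vim+ at 117.5%, inside the HCC70 range.

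ME2 (4200), the malic enzyme of mitochondria, and MEX3C (51320), an RNA-binding ubiquitin ligase, were read in every library. ME2 was at 12.557 FPKM in the K18+Vim+ library labelled MDA-MB-468, 5.03 FPKM in K18+K14+ and 11.887 FPKM in K18+, against 14.73, 12.998 and 14.825 FPKM in HCC70 K18+Vim+, K18+K14+ and K18+. Its lowest value was that of MDA-MB-468 K18+K14+, at 35.5% of the HCC70 mean, and the other 2 were at 88.5% and 83.8%. All ME2 values of MDA-MB-468 lay below the lowest HCC70 value of 12.998 FPKM. MEX3C was at 3.516 FPKM in the K18+Vim+ library labelled MDA-MB-468, 3.046 FPKM in K18+K14+ and 7.086 FPKM in K18+, against 4.92, 4.45 and 9.518 FPKM in the HCC70 libraries in the same order. Its ranges in the 2 lines overlapped, and in each line the K18+ library was the highest.

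In band 13q14, RB1 (5925) was the only gene of the 8 whose K18+Vim+ library labelled MDA-MB-468 stood above all 3 HCC70 libraries. It was at 6.684 FPKM there, 0.269 FPKM in MDA-MB-468 K18+K14+ and 0.307 FPKM in MDA-MB-468 K18+, against 2.036 FPKM in HCC70 K18+Vim+, 1.431 FPKM in HCC70 K18+K14+ and 2.237 FPKM in HCC70 K18+. The keratin-sorted MDA-MB-468 libraries were at 14.15% and 16.15% of the HCC70 mean of 1.90 ± 0.42 FPKM, and the library labelled K18+Vim+ was at 351.5% of it. The RB1 level in that library was 21.8-fold that in MDA-MB-468 K18+ and 24.9-fold that in K18+K14+. HCC70 held RB1 at a low level, at percentiles 41.5 to 44.3 of all genes in its 3 libraries.

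LPAR6 (10161), a receptor for lysophosphatidic acid, was listed at 0.1 FPKM in all 3 MDA-MB-468 libraries, against 8.3 FPKM in HCC70 K18+Vim+, 6.729 FPKM in HCC70 K18+K14+ and 10.283 FPKM in HCC70 K18+. It was the only gene of the 8 at the lowest listed value in the K18+Vim+ library labelled MDA-MB-468, and in RefSeq it lies inside RB1 on the opposite strand. Reads from 2 genes that overlap cannot be told apart where the counting does not use strand, and the strand use of the counting is not known here.

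RCBTB2 (1102), a protein with RCC1 and BTB domains, was at 2.049 FPKM in the K18+Vim+ library labelled MDA-MB-468, was listed at 0.1 FPKM in K18+K14+ and was at 0.333 FPKM in K18+, against 2.646, 1.282 and 2.256 FPKM in HCC70 K18+Vim+, K18+K14+ and K18+. The K18+Vim+ library labelled MDA-MB-468 was inside the HCC70 range and the keratin-sorted libraries were below it. ITM2B (9445), a membrane protein whose mutations cause familial dementias, was the most abundant of the 8. It was at 63.343 FPKM in the K18+Vim+ library labelled MDA-MB-468, 30.961 FPKM in K18+K14+ and 35.737 FPKM in K18+, against 119.544, 119.8 and 186.495 FPKM in HCC70 K18+Vim+, K18+K14+ and K18+. No ITM2B value of MDA-MB-468 reached the lowest HCC70 value, and its MDA-MB-468 K18+ level, at 25.2% of the HCC70 mean, placed it at percentile 85.6 of all genes in that library. In sorted bulk samples, fewer cells with a transcript and less of it per cell cannot be told apart.

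**Figure D1:**
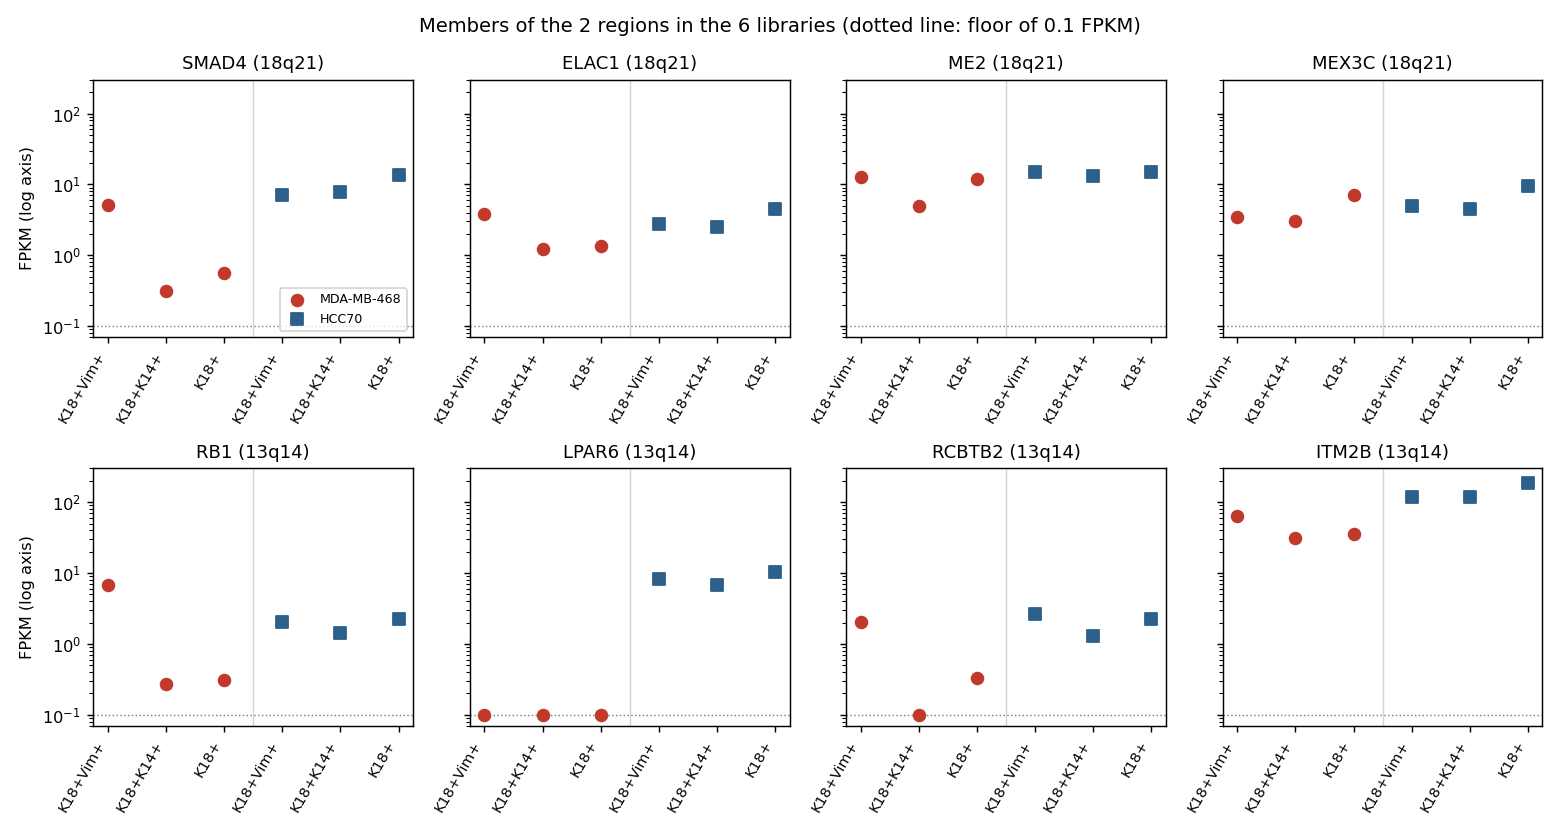
FPKM of the 8 genes (log axis) in each of the 6 libraries, with MDA-MB-468 left of HCC70 and 1 point per library. SMAD4 and RB1 stand at 5.19 and 6.684 FPKM in the K18+Vim+ library labelled MDA-MB-468 and under 1 FPKM in the other 2 MDA-MB-468 libraries, while LPAR6 is listed at 0.1 FPKM in all 3.

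Counts over the tested genes give the background of these descriptions. Both keratin-sorted MDA-MB-468 libraries were below all 3 HCC70 libraries for 7 of the 8 genes (the exception was MEX3C) and for 28% of all tested genes. All 3 MDA-MB-468 libraries were below all HCC70 libraries for SMAD4, ME2, LPAR6 and ITM2B, and for 21% of all tested genes. The K18+Vim+ library labelled MDA-MB-468 exceeded MDA-MB-468 K18+ by at least 1 on the log2(FPKM + 1) scale for 4 of 8 genes, SMAD4, ELAC1, RB1 and RCBTB2, and for 11.6% of all tested genes. The same 4 genes exceeded both keratin-sorted libraries by at least 1, as did 8.04% of all tested genes. Since these contrasts chose the genes, nothing is read from the counts.

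A rule applied to all genes, set after the values were seen, was met by 3 of the 8. Of 11082 genes at 1 FPKM or more in all 3 HCC70 libraries, 399 (3.6%) stood at no more than 25% of their lowest HCC70 value in both keratin-sorted MDA-MB-468 libraries, SMAD4, RB1 and LPAR6 among them. ELAC1, ME2, MEX3C and ITM2B were outside it, and RCBTB2 just outside, with 0.333 FPKM in MDA-MB-468 K18+ against a lowest HCC70 value of 1.282 FPKM. In the K18+Vim+ library labelled MDA-MB-468, 89 of the 399 genes (22.3%), with SMAD4 and RB1, reached at least 50% of their lowest HCC70 value, 56 (14%) lay between 25% and 50%, and 254 (63.7%), with LPAR6, did not pass 25%. At 0.1 FPKM in that library were 49 of the 399 (12.3%).

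**Figure D2:**
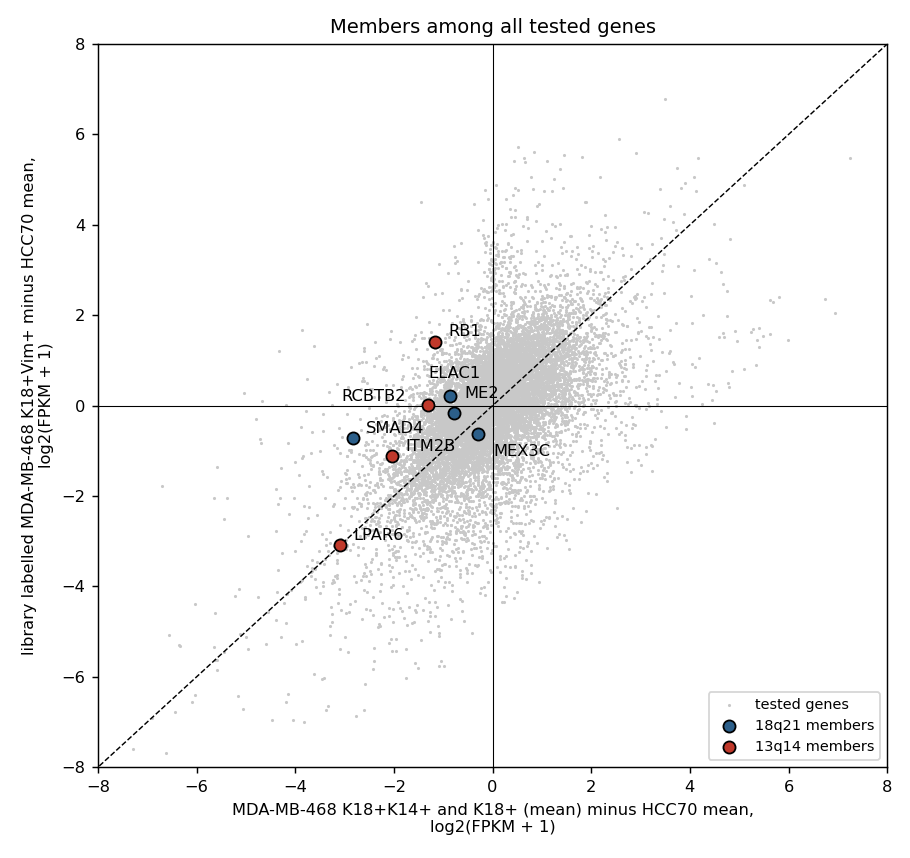
Each gene's log2(FPKM + 1) difference from the HCC70 mean, for the mean of the MDA-MB-468 K18+K14+ and K18+ libraries on the horizontal axis and for the K18+Vim+ library labelled MDA-MB-468 on the vertical axis, with all 12454 tested genes in grey and the 8 genes named. SMAD4 lies at -2.83 and -0.72, RB1 at -1.16 and 1.42, and LPAR6 at -3.08 on both axes.

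The genes beside the 8 were compared between the lines in the order of the RefSeq gene table, 15 protein-coding genes on either side of SMAD4 and of RB1. They were taken by position alone, and the lines were tested with limma over all 12454 genes. With all 6 libraries this test called 4.54% of genes higher and 7.68% lower in MDA-MB-468 than in HCC70. Without the K18+Vim+ library labelled MDA-MB-468 it called 11.5% higher and 15.4% lower. The fit without that library leaves 1 K18+Vim+ library, which the population term fits by itself, and has 1 residual degree of freedom. Its line difference thus compares only the K18+K14+ and K18+ libraries of the lines. Its p-values rest on fewer libraries than those with 6, and a smaller one is no stronger evidence. In both regions genes whose lines overlapped stood beside genes that were low in MDA-MB-468.

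Of the 30 neighbours of SMAD4, 29 were measured and 18 tested, of which 0 passed with 6 libraries. Without the K18+Vim+ library labelled MDA-MB-468, 2 were higher, RPL17-C18orf32 and LIPG, and 1 was lower, POLI. RPL17-C18orf32 is a readthrough gene that shares sequence with its parts, so its value is uncertain. LIPG, the endothelial lipase, was at 0.894 FPKM in the K18+Vim+ library labelled MDA-MB-468, 9.927 FPKM in K18+K14+ and 11.004 FPKM in K18+, against 1.531 to 2.176 FPKM in HCC70. POLI, a DNA polymerase that copies past damaged bases, was at 8.155, 2.332 and 11.907 FPKM in the same MDA-MB-468 libraries, against 20.755, 15.939 and 23.549 FPKM in HCC70 K18+Vim+, K18+K14+ and K18+. On the side of MEX3C, the nearest measured genes were DCC at 0.104 to 1.34 FPKM, MBD2 and POLI. MBD2, which binds methylated DNA, was at 32.57, 11.984 and 117.835 FPKM in MDA-MB-468, so that K18+ was above and the other 2 libraries below the HCC70 values of 89.639 to 94.246 FPKM. On the side of ME2 lay MRO and MAPK4, near the lowest listed value, and SKA1, a protein of the kinetochore, at 5.285 to 8.345 FPKM in MDA-MB-468 and 5.557 to 8.137 FPKM in HCC70. The levels of SKA1 in the 2 lines overlapped. Farther away, MYO5B, a myosin motor of membrane transport, was at 5.576, 13.751 and 10.086 FPKM in MDA-MB-468, against 49.831, 21.513 and 34.195 FPKM in HCC70. CXXC1, a protein that binds unmethylated CG, was at 79.283, 42.057 and 60.798 FPKM in MDA-MB-468, against 108.256 to 113.436 FPKM in HCC70. Neither MYO5B nor CXXC1 passed the test, although their lines did not overlap.

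Of the 30 neighbours of RB1, 28 were measured and 20 tested. With 6 libraries 0 were higher and 2 were lower in MDA-MB-468, LCP1 (limma adjusted p = 0.04) and CAB39L (limma adjusted p = 0.00456). With no filter on low values, neither passed. Without the K18+Vim+ library labelled MDA-MB-468, 6 of 20 were lower, namely MED4, SUCLA2, LRCH1, ERICH6B, LCP1 (limma adjusted p = 0.00801) and CAB39L (limma adjusted p = 0.000296). MED4, a subunit of the Mediator complex, was at 17.992 FPKM in the K18+Vim+ library labelled MDA-MB-468, 3.974 FPKM in K18+K14+ and 7.008 FPKM in K18+, against 11.655, 14.121 and 17.39 FPKM in HCC70 K18+Vim+, K18+K14+ and K18+. SUCLA2, a subunit of succinyl-CoA synthetase, was at 10.165, 3.224 and 4.263 FPKM in the same MDA-MB-468 libraries, against 5.293, 8.166 and 10.347 FPKM in HCC70. For both genes the library labelled K18+Vim+ was inside or above the HCC70 range and the keratin-sorted libraries were below it, as for RB1. LRCH1 was at 1.949, 0.427 and 1.028 FPKM in MDA-MB-468, against 2.753 to 3.509 FPKM in HCC70. LRCH1 was thus below HCC70 in all 3 MDA-MB-468 libraries. On the far side of RCBTB2, CYSLTR2 and MLNR were listed at 0.1 FPKM in all 6 libraries, and FNDC3A was at 6.885, 1.843 and 3.627 FPKM in MDA-MB-468, against 4.502, 4.177 and 8.877 FPKM in HCC70.

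CAB39L and LCP1 were low in all 3 MDA-MB-468 libraries. CAB39L, a scaffold of the kinase LKB1, was at 0.778, 1.345 and 1.988 FPKM in them, against 17.459, 25.848 and 28.017 FPKM in HCC70 K18+Vim+, K18+K14+ and K18+. LCP1, an actin-bundling protein, was at 0.248, 0.202 and 0.107 FPKM in MDA-MB-468, against 2.219 to 2.579 FPKM in HCC70. ERICH6B was at 1.518, 0.1 and 2.271 FPKM, against 2.515 to 4.036 FPKM in HCC70.

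The median tested neighbour differed from the HCC70 mean by -0.52 in 18q21 and by -0.454 in 13q14, on the log2(FPKM + 1) scale and for the mean of the keratin-sorted MDA-MB-468 libraries, against -0.011 for the median of all tested genes. In the K18+Vim+ library labelled MDA-MB-468 the median difference from the HCC70 mean was -0.282 in 18q21 and 0.365 in 13q14, against 0.027 over all tested genes. This library exceeded MDA-MB-468 K18+ in 15 of 20 neighbours of RB1, in 9 of 18 neighbours of SMAD4 and in 47.8% of all tested genes. For the whole chromosomes, with the 8 genes left out, the median difference of the keratin-sorted libraries from the HCC70 mean was -0.207 over 173 genes of chromosome 18 and -0.034 over 195 genes of chromosome 13. The medians are a description, since genes on 1 chromosome are not independent.

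**Figure D3:**
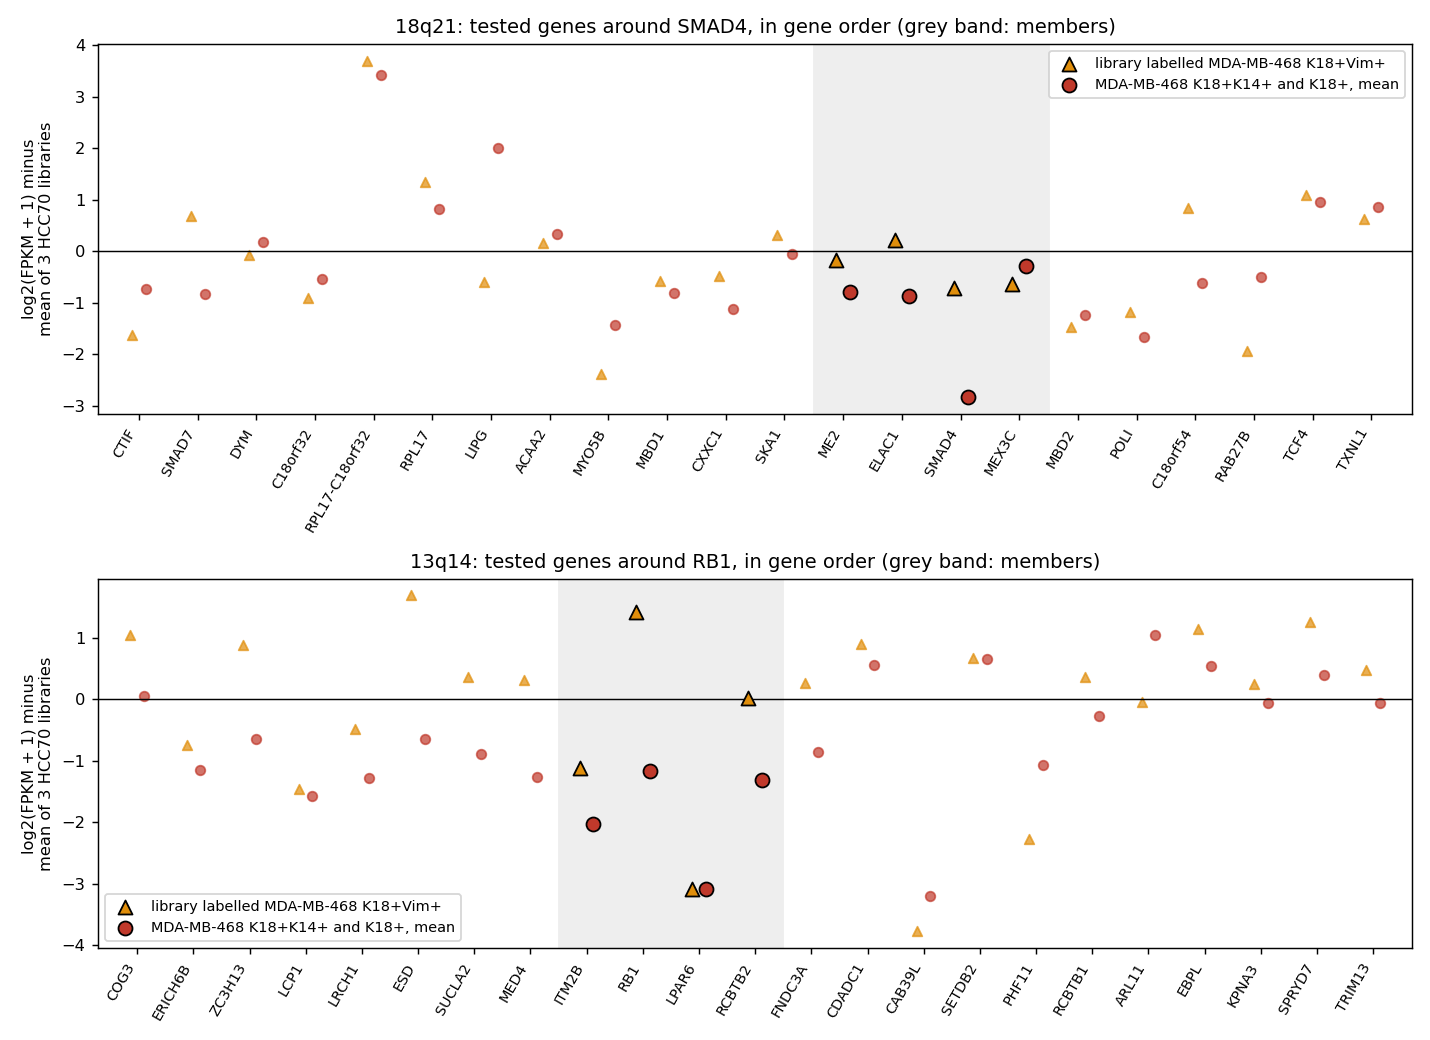
Log2(FPKM + 1) difference from the HCC70 mean for the tested genes around SMAD4 and around RB1 in RefSeq gene order (1 neighbour of RB1 is not drawn), with 1 mark for the mean of the MDA-MB-468 K18+K14+ and K18+ libraries and 1 for the K18+Vim+ library labelled MDA-MB-468. Around RB1 the median neighbour lies at -0.454 for the keratin-sorted mean and at 0.365 for the library labelled K18+Vim+.

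The difference between K18+K14+ and K18+ cells took no part in the choice of the genes and was tested. All 8 genes were lower in K18+K14+ than in K18+ cells in HCC70, and 7 of 8 were lower in both lines, with LPAR6 listed at 0.1 FPKM in both libraries of MDA-MB-468. Of all tested genes 64.7% were lower in HCC70 and 43.7% in both lines. None of the 8 passed the test: limma called 0% of the 12454 genes higher and 0% lower at an adjusted p of 0.05, while 428 genes (3.44%) had an unadjusted p under 0.05. Without the K18+Vim+ library labelled MDA-MB-468 it again called 0% in either direction, with 12.8% under 0.05 unadjusted.

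MEX3C had the largest difference of the 8, at -0.97 ± 0.37 (log2, SE, n = 2 lines; limma adjusted p = 0.855, lower in 2 of 2 lines). Its K18+K14+ level was 43% of the K18+ level in MDA-MB-468 and 46.8% in HCC70. ME2 was at -0.64 ± 0.42 (SE; limma adjusted p = 0.855), with a K18+K14+ level of 42.3% of K18+ in MDA-MB-468 and 87.7% in HCC70. SMAD4 was at -0.49 ± 0.71 (SE; limma adjusted p = 0.904), with a K18+K14+ level of 54.8% of K18+ in MDA-MB-468, where both are under 1 FPKM, and 57.4% in HCC70. The fitted differences of the other 5 genes ran from -0.42 for ITM2B to -0.23 for RB1, each smaller than its SE, with limma adjusted p between 0.88 and 0.96. Leaving out the K18+Vim+ library labelled MDA-MB-468 cannot change the 8 differences, since in this design they are formed from the K18+K14+ and K18+ libraries alone. Leaving out the HCC70 K18+ library turned the sign for SMAD4 (0.34), ELAC1 (0.19), RB1 (0.53) and ITM2B (0.052), and leaving out MDA-MB-468 K18+K14+ turned it for RB1 (0.25).

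The median difference of the 8 genes between K18+K14+ and K18+ was -0.23 in MDA-MB-468 and -0.59 in HCC70, against -0.169 and -0.146 over all tested genes. Transcript length moved with this comparison: over 12031 genes the Spearman correlation of the log2 ratio with the longest coding transcript was -0.324 in MDA-MB-468 and -0.246 in HCC70. Genes of 4000 nt or more had medians of -0.434 in MDA-MB-468 and -0.252 in HCC70, and genes under 2000 nt medians of 0.337 and -0.008. The longest coding transcripts of the 8 genes are 2235 nt (ELAC1) to 10137 nt (ITM2B) long, with 4 of 8 at 4000 nt or more. Which transcripts of these genes the cells expressed was not tested, and shorter ones may be the main ones. The part of length in the result was not tested.

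**Figure D4:**
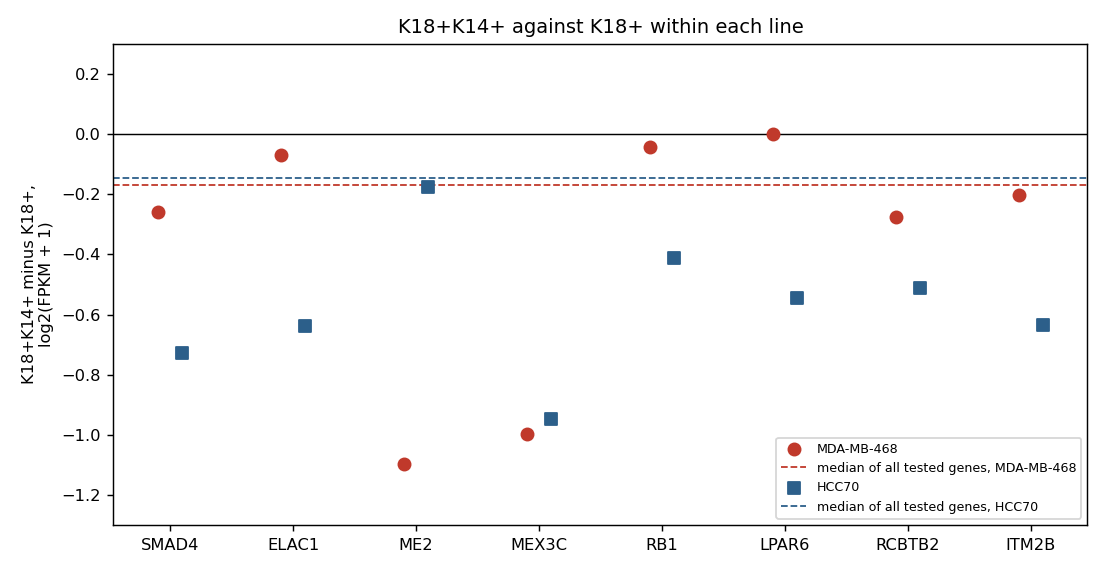
Log2(FPKM + 1) ratio of K18+K14+ over K18+ for each of the 8 genes, with 1 point per line, beside the median of all tested genes of that line. All 8 points of HCC70 lie below 0, from -0.95 for MEX3C to -0.18 for ME2, and none of the 8 differences passed the test.

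In HCC70 the K18+ library held the highest level of 7 of the 8 genes (the exception was RCBTB2, highest in K18+Vim+), and of 49% of all tested genes. K18+Vim+ cells of HCC70 had less than K18+ cells of the same 7 genes, as of 64.5% of all tested genes. SMAD4 was at 51% of its K18+ level in HCC70 K18+Vim+, MEX3C at 51.7%, ELAC1 at 61% and ITM2B at 64.1%, while ME2 was at 99.4%. Over both lines, limma called 0% of genes higher and 0% lower in K18+Vim+ than in K18+ with 6 libraries, with 4.27% under an unadjusted p of 0.05. Without the K18+Vim+ library labelled MDA-MB-468, a fit in which HCC70 is the lone K18+Vim+ sample, it called 0% in either direction, with 5.32% under 0.05 unadjusted.

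Genes that work with SMAD4 were compared between the lines with the same limma test. With 6 libraries it called 4.54% of all tested genes higher and 7.68% lower in MDA-MB-468. The shares without the K18+Vim+ library labelled MDA-MB-468 are given above with the neighbours. Each list count is to be read beside these shares. Of 17 tested ligands and receptors of the TGF-beta and BMP families, 1 was higher and 2 were lower in MDA-MB-468 than in HCC70 with 6 libraries, and 3 were higher and 4 lower without the K18+Vim+ library labelled MDA-MB-468. BMP7, a BMP ligand, was higher, at 8.378, 1.827 and 5.045 FPKM in the K18+Vim+, K18+K14+ and K18+ libraries labelled MDA-MB-468, against 0.1 to 0.138 FPKM in HCC70 (log2 difference 2.28 ± 0.43 SE, limma adjusted p = 0.028). Without the first of these libraries its difference was 1.89 ± 0.35 (SE). GDF15, a stress-induced ligand of the family, and ENG, a co-receptor, were lower. Passing only without that library were TGFB2 and BMP4, both higher, and TGFB3 and BMPR1B, both lower. TGFB2 was at 2.441, 18.81 and 31.759 FPKM in MDA-MB-468, against 2.152 to 2.656 FPKM in HCC70. TGFB3 was at 4.432, 0.151 and 0.723 FPKM in MDA-MB-468, against 5.118 to 9.339 FPKM in HCC70. As for SMAD4, the 2 keratin-sorted libraries were those that stood farthest from HCC70 in both genes.

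Of 17 SMAD proteins and regulators other than SMAD4, 1 was higher with 6 libraries and without the K18+Vim+ library labelled MDA-MB-468. This was ZFYVE9, which brings SMAD2 and SMAD3 to the receptors, at 1.815 to 2.375 FPKM in MDA-MB-468 and 0.1 to 0.121 FPKM in HCC70. SMAD3, a partner that SMAD4 binds, was at 4.803, 4.934 and 11.728 FPKM in MDA-MB-468, against 10.705, 14.64 and 17.984 FPKM in HCC70, and did not pass. SMAD6, which inhibits BMP signals, did not pass either, at 27.465, 9.454 and 11.933 FPKM in MDA-MB-468, against 3.517 to 6.402 FPKM in HCC70.

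Of 13 tested target genes of TGF-beta and BMP signals, 1 was higher and 4 were lower with 6 libraries, and 1 was higher and 6 were lower without the K18+Vim+ library labelled MDA-MB-468. TGFBI, a matrix protein induced by TGF-beta, was at 1.252, 7.639 and 13.385 FPKM in MDA-MB-468, against 154.994, 116.407 and 141.669 FPKM in HCC70 (log2 difference -4.40 ± 0.57 SE, limma adjusted p = 0.012). Its difference was smaller without the K18+Vim+ library labelled MDA-MB-468, at -3.54 ± 0.36 (SE). CCN2, also known as connective tissue growth factor, was higher, at 4.882, 53.477 and 28.288 FPKM in MDA-MB-468, against 0.38 to 0.574 FPKM in HCC70 (log2 difference 3.84 ± 0.63 SE, limma adjusted p = 0.0198). Without that library its difference was larger, at 4.80 ± 0.35 (SE). ID1, a target of BMP signals, and CDKN2B, a kinase inhibitor induced by TGF-beta, were lower, with ID1 at 41.392 to 109.938 FPKM in MDA-MB-468 against 236.945 to 316.233 FPKM in HCC70. The other lower gene was LTBP3, which binds latent TGF-beta, and SNAI2 and TSC22D1 were lower only without that library. The list moved in both directions. Its median was -1.216 for the keratin-sorted libraries minus HCC70, against -0.011 over all tested genes. For the K18+Vim+ library labelled MDA-MB-468 minus HCC70 it was -1.027, against 0.027 over all tested genes. With 6 libraries limma called 4.54% of all tested genes higher and 7.68% lower.

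For RB1 the same test was read over its family, its upstream kinases and its targets. With 6 libraries it called 4.54% of all tested genes higher and 7.68% lower in MDA-MB-468. Of 16 RB family, E2F and DP genes other than RB1, 0 passed with 6 libraries, and 0 were higher and 2 lower without the K18+Vim+ library labelled MDA-MB-468. These were RBL2, a relative of RB1 that also binds E2F proteins, at 8.889, 2.059 and 13.386 FPKM in MDA-MB-468 against 14.004, 17.711 and 25.819 FPKM in HCC70, and E2F4, a partner of the RB family in repression, at 20.771 to 36.617 FPKM in MDA-MB-468 against 57.655 to 72.158 FPKM in HCC70. Of 14 G1 cyclins, kinases and inhibitors, 0 passed with 6 libraries, and 1 was higher (CDKN2D) and 2 lower (CDKN2A and CDK2) without that library. CDKN2A, which encodes the kinase inhibitor p16, was at 301.063, 199.704 and 165.137 FPKM in MDA-MB-468, against 628.539, 572.52 and 525.783 FPKM in HCC70. No CDKN2A value of MDA-MB-468 reached the lowest one of HCC70.

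Of 24 matched E2F target genes of S phase, 1 was higher with 6 libraries (TYMS), and 3 were higher and 1 lower without the K18+Vim+ library labelled MDA-MB-468. Of all tested genes 4.54% were called higher and 7.68% lower with 6 libraries. TYMS, the thymidylate synthase, was at 47.663, 145.036 and 162.685 FPKM in MDA-MB-468, against 23.619, 34.11 and 30.342 FPKM in HCC70. DNMT1, which methylates DNA, was among the higher genes without that library, and MCM4, a subunit of the replicative helicase, was the lower one. The median of the list was 0.621 for the keratin-sorted libraries minus HCC70 and 0.509 for the K18+Vim+ library labelled MDA-MB-468 minus HCC70, against -0.011 and 0.027 over all tested genes. In K18+K14+ against K18+, limma called 0 genes of these lists in either direction.

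Of the 12 tested paralogues of the 8 genes, 1 was higher and 0 lower in MDA-MB-468 with 6 libraries, and 3 were higher and 2 lower without the K18+Vim+ library labelled MDA-MB-468. ITM2C, the relative of ITM2B, was at 20.981 FPKM in the K18+Vim+ library labelled MDA-MB-468, 15.978 FPKM in K18+K14+ and 17.036 FPKM in K18+, against 1.2, 0.216 and 1.394 FPKM in HCC70 K18+Vim+, K18+K14+ and K18+ (log2 difference 3.35 ± 0.33 SE, limma adjusted p = 0.00555). Without the first of these libraries the ITM2C difference was 3.36 ± 0.36 (SE). Its 3 MDA-MB-468 values lay above all HCC70 values, and those of ITM2B lay below. ME3, the relative of ME2, was at 0.898, 9.924 and 13.592 FPKM in MDA-MB-468, against 24.339 to 26.05 FPKM in HCC70, and passed only without that library (limma adjusted p = 0.047), as did RBL2, also lower, and MEX3A and MEX3D, relatives of MEX3C that were higher. RBL1, the other relative of RB1, was at 4.029 to 4.584 FPKM in MDA-MB-468 and 3.415 to 4.223 FPKM in HCC70. Of all tested genes 4.54% were called higher and 7.68% lower with 6 libraries.

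The genes most like SMAD4 over the 6 libraries, by Pearson correlation of log2(FPKM + 1) across 12437 genes, were ZFYVE26, DROSHA, PARP8, MECOM and ALG1, with r from 0.9939 to 0.9953. They lie on other chromosomes. The correlation takes no account of the size of a difference. ZFYVE26, the first of them, was at 4.11, 2.613 and 2.78 FPKM in MDA-MB-468, against 4.216, 4.179 and 4.963 FPKM in HCC70. MECOM, a transcription factor, was at 2.213, 0.311 and 0.365 FPKM in MDA-MB-468, against 2.792, 3.686 and 5.676 FPKM in HCC70. The nearest to SMAD4 among the 8 genes was ITM2B of chromosome 13 at rank 70, and ELAC1, the next gene on the chromosome, stood at rank 408. The genes most like RB1 were L3MBTL3, ZNF655, PALD1, TUBB4B and SNRNP40, with r from 0.987 to 0.9948. L3MBTL3, a reader of methylated histones, was at 5.045, 0.202 and 0.421 FPKM in MDA-MB-468, against 1.918, 1.35 and 1.763 FPKM in HCC70. Like RB1, it had its highest value in the K18+Vim+ library labelled MDA-MB-468 and its lowest values in the keratin-sorted MDA-MB-468 libraries. RB1 and LPAR6, which share a locus, had r = 0.184, and RB1 and SMAD4 r = 0.682. With 6 libraries of which 1 was unlike the others of its line, these correlations describe the libraries, and the points share their line and preparation.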

How the data were processed

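Cells were fixed, stained, sorted and extracted with a kit for fixed tissue, per the labels' protocols. The deposited values are FPKM per Entrez Gene ID, made by the authors from alignments by TopHat2 to GRCh37, per the submitters' processing notes. Counting tool, annotation, versions and strand use: not given in the sources used here. FPKM values have a lowest value of 0.1 and a highest of 10000. Read numbers are not known here, so depth is unknown.

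The table has 18807 rows, of which 7 were dropped for a blank, always in the K18+Vim+ library labelled MDA-MB-468, and for 5 IDs with 2 rows the row of higher mean was kept. Of the 18795 genes left, 18731 matched a symbol. Genes averaging 1 FPKM or more were fitted as log2(FPKM + 1) with limma 3.58.1 in R 4.3.3 (trend, all 6 libraries, population and cell line as terms, 2 residual degrees of freedom). With 1 library left out, 1 residual degree of freedom remained. Since each line gave 1 library per population, libraries were paired by line. P-values were adjusted by Benjamini-Hochberg over all genes tested, at 0.05. Log2 differences are on this scale, which understates changes of low genes. The fit was run on simulated data, but the outcome is not reported here, so its power for differences of the size described is not stated. Tables and figures used Python 3.11.15, pandas 2.3.3, numpy 2.4.6, scipy 1.17.1 and matplotlib 3.10.9. Gene order, names and promoter windows are from RefSeq (GRCh38.p14), and lengths from GENCODE 29.

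The 8 genes and all lists were chosen with earlier results of these data known. Named besides were the 3 measured genes next to the 8 on either side, up to 4 others per region with the largest difference between the keratin-sorted MDA-MB-468 libraries and HCC70, the 5 genes most like SMAD4 and RB1, and up to 4 genes per list, those that passed with 6 libraries first and then by size of difference. Paralogues could be named with their gene. Named outside this rule, after their values were seen, were BMP4, BMPR1B, TGFB3, LTBP3, SNAI2, TSC22D1, CDKN2D, DNMT1 and MCM4. For 2 genes that the rule names, 1 neighbour of RB1 and 1 E2F target, values are not reported here. Alternatives were no cell line term, other pseudocounts (0.1 and 5), no filter or a minimum of 5 FPKM, limma without trend, quantile normalization and leaving out each library.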

Additional observations from a re-analysis of the deposited data

Results flagged for a closer look

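The log2(FPKM + 1) difference between K18+Vim+ and K18+ ran in opposite directions in the 2 lines for 5 of the 8 genes. Over all tested genes the share with opposite directions was not counted. K18+Vim+ was the higher in 47.8% of them in the pair labelled MDA-MB-468 and in 34.4% in HCC70. Nothing is read from the count of 5. The difference between the lines was not tested, each direction rests on 1 pair of libraries, and the MDA-MB-468 side is 1 of the contrasts that chose the genes. RB1 stood at 2.56 in the pair labelled MDA-MB-468 and at -0.09 in HCC70. SMAD4 stood at 1.98 in the pair labelled MDA-MB-468 and at -0.88 in HCC70. ELAC1 stood at 1.04 and ITM2B at 0.81 in the pair labelled MDA-MB-468, against -0.55 and -0.64 in HCC70. ME2 differed in sign only, at 0.07 in the pair labelled MDA-MB-468 and at -0.01 in HCC70. All 5 rest on the K18+Vim+ library labelled MDA-MB-468, and without it no such difference can be formed.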

How the results depend on the processing

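In K18+K14+ against K18+ the limma call count of 0 over all genes held under every alternative but 1: without the HCC70 K18+K14+ library it was 1, so that leaving out each library gave 0 to 1. The fit with no replicate block, in which cell line is left out, gave 0 as well. Of 100 recomputed values of the 8 genes in this comparison, 0 passed and 5 changed sign. These were SMAD4 (0.34), ELAC1 (0.19), RB1 (0.53) and ITM2B (0.052) without HCC70 K18+, and RB1 (0.25) without MDA-MB-468 K18+K14+, each with a limma adjusted p of 1, against a lowest value of 0.386 over all alternatives. As each library was left out, SMAD4 ran from -1.33 to 0.34, ELAC1 from -0.89 to 0.19, RB1 from -0.98 to 0.53 and ITM2B from -0.89 to 0.052. In K18+Vim+ against K18+ the count was 0 and ran from 0 to 1500 as each library was left out, 1500 without HCC70 K18+Vim+. Between the lines, 1522 genes passed (565 higher, 957 lower in MDA-MB-468), 0 with no filter on low values (3993 at an unadjusted p under 0.05), and 206 to 3360 as each library was left out: 3344 without the K18+Vim+ library labelled MDA-MB-468, 3360 without HCC70 K18+Vim+, and 206 to 326 without each of the other 4. The first 2 leave 1 K18+Vim+ library, which the population term then fits by itself. Among the neighbours, leaving out each library gave 0 to 3 calls of 18 in 18q21 and 1 to 6 of 20 in 13q14, and no filter on low values gave 0 of 29 and 0 of 28 (7 and 3 at an unadjusted p under 0.05), which ended the calls of LCP1 and CAB39L. With all 6 libraries, a pseudocount of 5 called 1 of 18 neighbours lower in 18q21, and a minimum of 5 FPKM called 1 of 13 lower. The same minimum called 1 of 13 lower in 13q14. POLI had a limma adjusted p of 0.0506 in the main fit. Of 96 recomputed log2 ratios of the 8 genes, 84 kept their side of a log2 ratio of 1, 10 lost it, 2 gained it and 0 changed sign. Depth could not be weighed, since read counts are unknown, and levels under 1 FPKM, as of RB1 and SMAD4 in the keratin-sorted MDA-MB-468 libraries, can rest on few reads.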

Other observations

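The other receptors for lysophosphatidic acid differed among themselves across the libraries where LPAR6 was listed at 0.1 FPKM. LPAR2 was at 15.592 FPKM in the K18+Vim+ library labelled MDA-MB-468, 95.482 FPKM in MDA-MB-468 K18+K14+ and 56.349 FPKM in MDA-MB-468 K18+, against 118.105, 120.175 and 84.839 FPKM in HCC70 K18+Vim+, K18+K14+ and K18+. LPAR1 was at 1.841 FPKM in the K18+Vim+ library labelled MDA-MB-468 and at 0.1 to 0.123 FPKM in the other 5 libraries. LPAR5 was at 0.108 FPKM in that library, and at 2.346 and 2.802 FPKM in the keratin-sorted MDA-MB-468 libraries. LPAR3 was at 1.309 to 2.144 FPKM in MDA-MB-468 and 1.023 to 1.794 FPKM in HCC70.

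SNAI2, a repressor of epithelial genes on the list of TGF-beta targets, was at 3.044 FPKM in the K18+Vim+ library labelled MDA-MB-468 and was listed at 0.1 FPKM in both keratin-sorted MDA-MB-468 libraries, against 2.485, 9.232 and 13.49 FPKM in HCC70 K18+Vim+, K18+K14+ and K18+. It passed limma's test of the lines only without that library (adjusted p = 0.000267; 0.0965 with 6 libraries).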
